A study of Mus musculus with 12 samples.

Results

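The response of mouse liver to ischemia-reperfusion injury (IRI) was compared between a high-fat diet (HFD) and a normal diet (ND). The comparison used all 12 liver libraries of the series. It asked of each gene whether the change that IRI made on the high-fat diet differed from the change it made on the normal diet, and 13364 of 25947 listed genes were expressed highly enough to be tested. The 4 groups of 3 libraries were wild type (WT) livers. HFD-IRI and ND-IRI livers came from mice that had eaten their diet for 4 months, had the left and middle branches of the hepatic pedicle tied off for 1 h, and were sampled after 6 h of reperfusion. HFD-Sham and ND-Sham livers came from mice on the same diets that had the operation without the ligation. Strain, sex, age and the lobe sampled were not stated in the sources used here. Poly(A) RNA was sequenced, and the authors deposited TPM values, length-normalised shares of each library's RNA, whose sum is fixed in every library. The sequencing depth behind the values is therefore unknown. Because each sample is bulk tissue, fewer cells of a type and less RNA per cell cannot be told apart. The labels do not say that the 3 libraries of a group came from separate mice, so p-values measure the spread between these libraries, which may be technical.

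In ischemia-reperfusion, tissue is first starved of oxygen and then injured further when blood returns, as oxidants, dying hepatocytes and recruited neutrophils add to the damage. Hepatocytes lower many of their metabolic genes during this injury and raise stress, chemokine and acute phase genes. Steatotic livers, which store fat in their hepatocytes, are known to tolerate the injury poorly. The nuclear receptor PPAR-alpha senses fatty acids and switches on genes of fatty acid oxidation, among them the Cyp4a genes, whose enzymes hydroxylate the far end of fatty acids in the endoplasmic reticulum. Hepatocytes are also zoned along the lobule, and those near the central vein, where oxygen is lowest, carry most of the drug-oxidising enzyme CYP2E1.

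The libraries held hepatocyte RNA throughout. The summed level of 15 hepatocyte markers, albumin among them, was 124871 to 139029 TPM in HFD-IRI, 125333 to 141300 TPM in HFD-Sham, 119539 to 147556 TPM in ND-IRI and 134483 to 152340 TPM in ND-Sham livers. Between 18935 and 20425 genes had a value above 0 in a library, and mitochondrially encoded transcripts made up 9.43% to 15.2% of the TPM. The first ND-IRI and the first ND-Sham library stood apart from the others of their groups on the third principal component, which held 8.13% of the variance. The first ND-IRI library lay at -20.1 there, against 25.4 and 23.7 for the others of its group. The first ND-Sham library lay at 30.5, against -17.0 and -10.2, and it also held 137 TPM of lymphocyte and plasma cell markers, against 12.6 and 13.5 TPM in the other ND-Sham libraries. The same library held 11.63 TPM of the adipocyte gene Adipoq, against at most 0.23 TPM in any other library. Both libraries were kept, and counts without them are given with the gene lists and at the end.

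The response to IRI was largely shared by the diets, and 13 genes (0.0973% of those tested) responded differently at an adjusted p under 0.05 in limma. For 6 genes (0.0449%) the response was higher on the high-fat diet, and for 7 (0.0524%) it was lower. Among these, Cux2 and Lce1d passed the filter on low genes through a single group, so their calls are no support for a difference. IRI alone changed 6138 genes (45.9%) on the high-fat diet and 6248 (46.8%) on the normal diet, and 4601 genes changed in the same direction on both, against 14 in opposite directions. Across genes, which are not independent replicates, the responses on the high-fat and the normal diet had a Pearson r of 0.869 and a Spearman rho of 0.867, with no library in common. The difference between the responses had a median of -0.13 on the log2(TPM + 1) scale, with 8865 genes below 0 and 4499 above it. At an unadjusted p under 0.05 there were 1345 genes (10.1%), 353 of them higher and 992 lower.

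**Figure D1:**
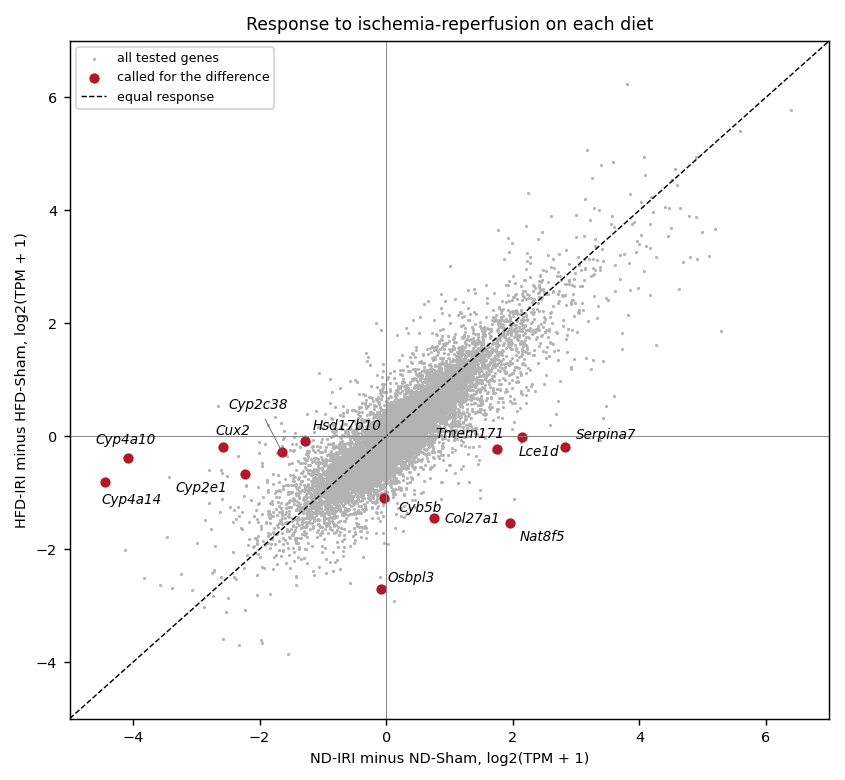
Response to IRI on the high-fat diet (vertical axis) and on the normal diet (horizontal axis), as differences of mean log2(TPM + 1), for each of the 13364 tested genes (grey). The 13 genes called for the difference (red) lie far from the dashed line of equal response: Cyp4a10 and Cyp4a14 fell by over 4 units on the normal diet and lie above -1 on the high-fat diet, and Nat8f5 and Col27a1 rose on the normal diet and fell on the high-fat diet.

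A standard error was typically 0.28 for the difference between the responses, and a 95% interval reached 0.60 to either side. For 8444 genes (63.2%) the interval lay within 1 log2 unit of 0. A difference of over 1 unit is therefore outside the interval for these genes, and smaller differences were not resolved. By the mean response over both diets, the median was -0.14 in 339 genes that rose by over 2 units, -0.14 in 7158 genes within 0.5 units of 0, and -0.11 in 674 genes that fell by 1 to 2 units. The 46 genes that fell by over 2 units had a median of 0.05. Rescaling the libraries by median ratios or by quantile normalization moved the median of all genes to 0.01 and 0.00, so the medians of gene groups are read relative to that of all genes.

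Because the difference between the responses is also the diet difference in IRI livers minus that in sham livers, the 13 genes had to differ between the diets somewhere, and the split is only a description. The diets were called different in IRI livers for 8 of them and in sham livers for 6, with 1 gene, Cyp2c38, in both, beside 3.86% and 5.84% of all tested genes. IRI itself changed 11 of the 13 on the normal diet, beside 46.8% of all tested genes, and 5 on the high-fat diet, beside 45.9%, with 3 changed on both. By the same reasoning the 13 genes had to respond to IRI somewhere. Their profiles fell into a set that IRI lowered on the normal diet, a set that IRI raised there, and a pair of genes high in HFD-Sham livers.

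**Figure D2:**
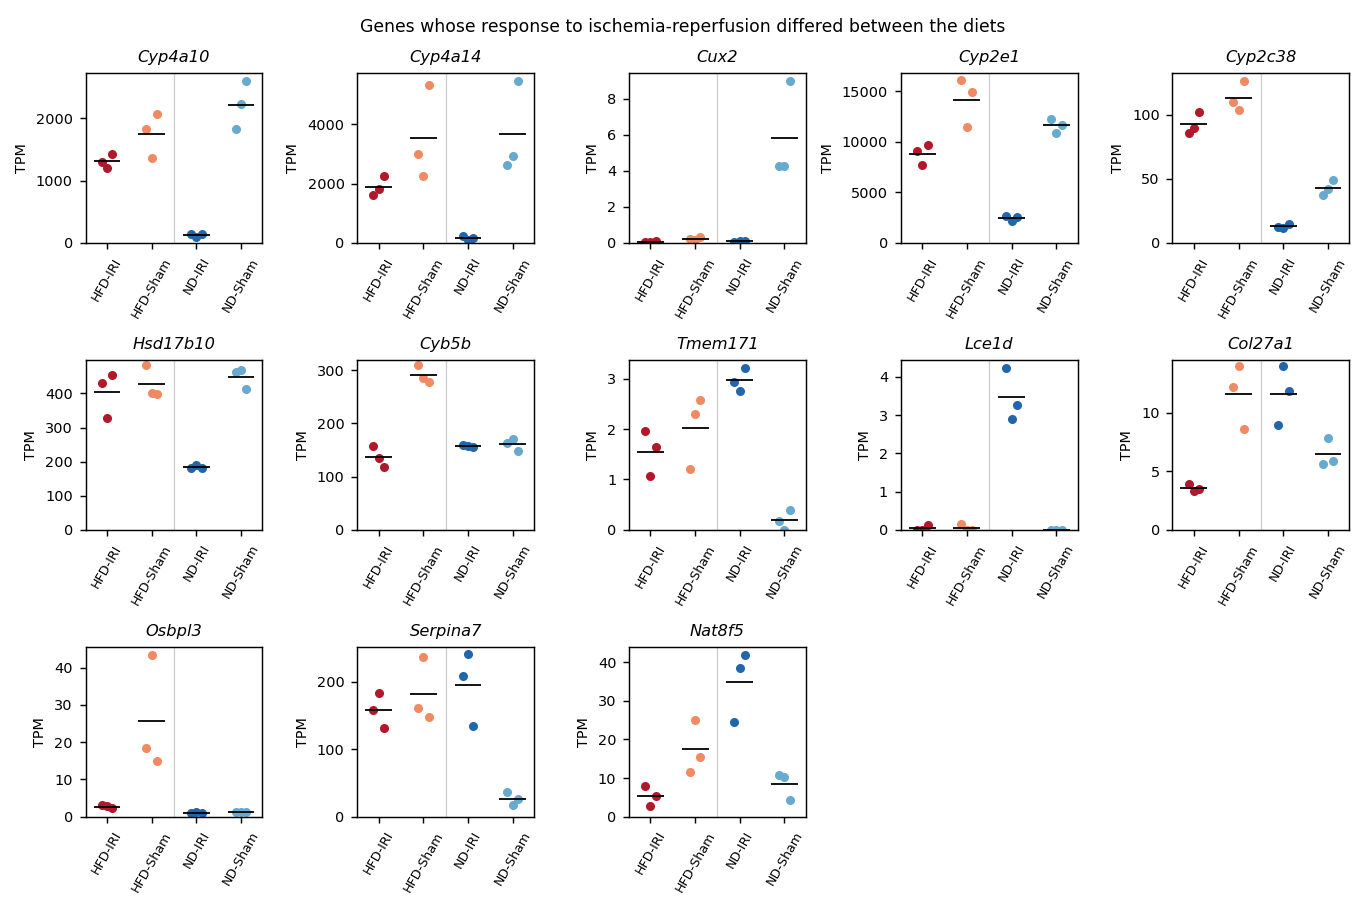
TPM of the 13 genes called for a difference between the responses, with 1 point per library and a bar at the group mean, in HFD-IRI, HFD-Sham, ND-IRI and ND-Sham livers (3 libraries each). Cyp4a10, Cyp4a14, Cyp2e1 and Hsd17b10 are lowest in ND-IRI livers, Osbpl3 and Cyb5b are highest in HFD-Sham livers, and Serpina7 and Tmem171 are lowest in ND-Sham livers.

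Cyp4a10 and Cyp4a14, the PPAR-alpha-driven fatty acid omega-hydroxylases of mouse liver, had the largest positive differences. Cyp4a10 was at 1301, 1208 and 1425 TPM in HFD-IRI livers, against 1819.8, 1358 and 2061 TPM in HFD-Sham livers. Its ND levels were 151, 93.6 and 149.7 TPM in ND-IRI livers, against 1832, 2225 and 2595 TPM in ND-Sham livers. The high-fat values of injured and sham livers overlapped, whereas every ND-IRI library was far below every other library. Cyp4a10 kept 75.1% of its sham mean after IRI on the high-fat diet and 5.93% on the normal diet. The responses were -0.40 on the high-fat diet, which did not pass the test (adjusted p = 0.14), and -4.08 on the normal diet (adjusted p = 4.00e-07), a difference of 3.69 ± 0.29 (SE; 95% interval 3.05 to 4.33; limma adjusted p = 0.00038). This call held under all 23 alternatives, including each of the 12 libraries left out in turn.

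Cyp4a14 followed the same pattern with a wider spread. It was at 1612, 1816 and 2258 TPM in HFD-IRI livers, against 3005, 2254 and 5338 TPM in HFD-Sham livers. In mice fed the normal diet it was at 234, 112 and 155 TPM in ND-IRI livers, against 2645, 2949.8 and 5458 TPM in ND-Sham livers. Injured livers kept 53.7% of the sham mean on the high-fat diet, with overlapping values, and 4.53% on the normal diet, with none. The difference was 3.63 ± 0.50 (SE; limma adjusted p = 0.0219). It was not called without HFD-IRI 2, HFD-IRI 3, ND-IRI 2, ND-IRI 3 or ND-Sham 3 (adjusted p 0.0612 to 0.0702, estimates 3.30 to 3.65) or under median-ratio scaling (adjusted p = 0.0525).

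The Cyp4a family as a whole spread widely. Of its 6 tested genes only these 2, Cyp4a10 and Cyp4a14, were called, and with them included the differences had a median of 1.48 and a range of -0.35 to 3.69. Cyp4a31 and Cyp4a32, close relatives of Cyp4a10, had differences of 1.86 (95% interval 0.89 to 2.82; limma adjusted p = 0.126) and 1.09 (0.18 to 2.00) that did not pass. Cyp4a31 was at 13.2, 22.1 and 16.3 TPM in HFD-IRI livers, against 25.6, 45.9 and 35.3 TPM in HFD-Sham livers, and at 4.61, 2.93 and 3.62 TPM in ND-IRI livers, against 31.2, 21.0 and 53.6 TPM in ND-Sham livers. Cyp4a12a and Cyp4a12b, the male-biased members, had -0.35 (-1.68 to 0.98) and 0.03 (-1.55 to 1.60). The Cyp4a genes are near-identical copies in places, and how the authors shared reads among them was not given in the sources used here, so the split between members is uncertain.

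Cyp2e1, which oxidises ethanol, paracetamol and ketone bodies in pericentral hepatocytes, was among the most abundant transcripts. It was at 9063, 7723 and 9682 TPM in HFD-IRI livers, against 16104, 11456 and 14961 TPM in HFD-Sham livers. On the normal diet it was at 2719, 2164 and 2531 TPM in ND-IRI livers, against 12298, 10923 and 11677 TPM in ND-Sham livers. It fell on both diets with no overlap, to 62.2% of the sham mean on the high-fat diet and 21.2% on the normal diet, while sham livers of the diets overlapped. The responses were -0.68 (adjusted p = 0.00405) on the high-fat diet and -2.24 (adjusted p = 1.83e-06) on the normal diet, and the difference was 1.56 ± 0.22 (SE; limma adjusted p = 0.0219). It was not called without HFD-IRI 1, HFD-IRI 3, ND-IRI 2, ND-IRI 3, ND-Sham 2 or ND-Sham 3 (adjusted p 0.0539 to 0.079, estimates 1.47 to 1.61), nor with no filter on low genes (0.0992) or under median-ratio scaling (0.0819).

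Cyp2c38, a P450 that forms epoxides of arachidonic acid in the mouse, was higher on the high-fat diet in both kinds of liver and more so after IRI. It was at 86.0, 89.5 and 102 TPM in HFD-IRI livers, against 109.9, 103 and 127 TPM in HFD-Sham livers. Its ND levels were 12.7, 11.7 and 14.7 TPM in ND-IRI livers, against 37.5, 41.7 and 49.4 TPM in ND-Sham livers. No pair of groups overlapped. The gap between the diets was 2.74 log2 units in IRI livers (adjusted p = 4.55e-07) and 1.39 in sham livers (adjusted p = 0.000198), and the difference of the responses was 1.35 ± 0.19 (SE; limma adjusted p = 0.0245). The call held with 3 of 12 libraries left out (HFD-Sham 3, ND-IRI 1 and ND-Sham 1), and was lost with each of the other 9 (adjusted p 0.0543 to 0.0948, estimates 1.25 to 1.44) and under median-ratio scaling (0.0722).

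Among the 14 tested Cyp2c genes, which share long stretches of sequence, 1 was called and 10 lay above 0, with a median of 0.85. Cyp2c39 lay just outside the threshold at 1.77 (95% interval 1.12 to 2.43; limma adjusted p = 0.0502), with 12.1, 6.90 and 11.2 TPM in HFD-IRI livers, against 11.3, 10.8 and 10.7 TPM in HFD-Sham livers, and 0.65, 0.71 and 1.52 TPM in ND-IRI livers, against 5.75, 6.91 and 6.18 TPM in ND-Sham livers. Cyp2c70, which makes the muricholic bile acids of mice, went the other way at -1.49 (-2.09 to -0.88; adjusted p = 0.0645). It was at 139.8, 202 and 204 TPM in HFD-IRI livers, against 100.5, 124 and 102 TPM in HFD-Sham livers, and at 606, 673 and 753 TPM in ND-IRI livers, against 143, 189 and 112 TPM in ND-Sham livers. Neither passed the test, and both were chosen after their values were seen.

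The promoters of Cyp2e1, Cyp2c38 and Hsd17b10 are shown because these called genes had their lowest levels in ND-IRI livers, as the Cyp4a genes above did. Each window runs from 250 bases before to 50 bases after the annotated start in RefSeq (GRCm38.p6, an older build than the GRCm39 of the authors' processing). Cyp2e1 lies at chr7:140763569-140763868 on the plus strand, Cyp2c38 at chr19:39463026-39463325 on the minus strand and Hsd17b10 at chrX:152001646-152001945 on the plus strand, and all are written 5′ to 3′ along the gene. Capitals mark the TATA box motif TATAAA.
Cyp2e1: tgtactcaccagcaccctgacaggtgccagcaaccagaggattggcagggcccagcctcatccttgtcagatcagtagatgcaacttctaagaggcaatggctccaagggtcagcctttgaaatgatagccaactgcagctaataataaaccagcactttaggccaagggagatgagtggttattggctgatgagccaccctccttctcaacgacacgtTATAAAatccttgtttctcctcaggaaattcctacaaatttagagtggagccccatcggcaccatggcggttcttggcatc
Cyp2c38: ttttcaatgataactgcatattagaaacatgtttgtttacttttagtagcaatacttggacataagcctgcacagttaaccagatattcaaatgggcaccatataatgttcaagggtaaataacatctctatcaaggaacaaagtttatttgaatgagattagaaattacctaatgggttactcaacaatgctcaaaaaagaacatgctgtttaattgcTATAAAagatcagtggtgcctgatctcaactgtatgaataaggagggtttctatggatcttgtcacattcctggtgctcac
Hsd17b10: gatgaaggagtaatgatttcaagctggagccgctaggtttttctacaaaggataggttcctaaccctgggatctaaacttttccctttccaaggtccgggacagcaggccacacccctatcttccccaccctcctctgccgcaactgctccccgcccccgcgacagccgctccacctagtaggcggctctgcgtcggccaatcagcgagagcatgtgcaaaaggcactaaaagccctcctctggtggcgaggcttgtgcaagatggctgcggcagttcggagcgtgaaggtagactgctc
In the Cyp2e1 and Cyp2c38 windows the motif begins 31 bases before the start, and the Hsd17b10 window holds none. Of the 13 genes, 10 had an entry in the table, with 12 promoters in all. TATAAA was on either strand of 6 of these 12 promoters, which belong to 5 genes, and of 13.6% of all 32851 promoters of this length. The Serpina7 windows overlap and hold the same match, which is counted in each, and the Cux2 match begins 67 bases before the start. These matches describe the letters of the windows only.

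Hsd17b10, a mitochondrial dehydrogenase of isoleucine and branched fatty acid breakdown that is also part of mitochondrial RNase P, fell on the normal diet, and its response on the high-fat diet did not pass the test. It was at 431, 327 and 454 TPM in HFD-IRI livers, against 483, 401 and 398 TPM in HFD-Sham livers. In mice fed the normal diet it was at 180.2, 189 and 181 TPM in ND-IRI livers, against 462, 468 and 412 TPM in ND-Sham livers. The 3 ND-IRI libraries were close together and below all others, and the remaining 3 groups overlapped. The responses were -0.09 (adjusted p = 0.613) on the high-fat diet and -1.28 (adjusted p = 2.18e-05) on the normal diet, and the difference was 1.19 ± 0.19 (SE; limma adjusted p = 0.0404). The call held without HFD-IRI 2, HFD-Sham 1 or ND-IRI 1 and was lost without each other library (adjusted p 0.0556 to 0.124, estimates 1.10 to 1.25), with no filter (0.0598), under median-ratio scaling (0.079), with no variance trend (0.0636) and with the replicate block (0.0663).

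Cux2, a transcription factor that marks female liver in mice, was detected above 1 TPM in ND-Sham livers alone. It was at 0.08, 0.03 and 0.12 TPM in HFD-IRI livers, against 0.22, 0.16 and 0.33 TPM in HFD-Sham livers, and at 0.05, 0.10 and 0.11 TPM in ND-IRI livers, against 4.26, 4.25 and 8.98 TPM in ND-Sham livers. It passed the filter on low genes through the ND-Sham group only, so that group had to stand out and the test below is no support for the pattern. The female transcript Xist was at 0 to 0.07 TPM and the Y-linked Ddx3y at 35.9 to 67.6 TPM over all 12 libraries. The difference was 2.38 ± 0.31 (SE; limma adjusted p = 0.0166), and it was not called without HFD-IRI 3, ND-IRI 2 or ND-IRI 3 (adjusted p 0.0543 to 0.0679, estimates 2.36 to 2.40).

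Serpina7, which encodes the thyroxine carrier of plasma, rose on the normal diet and was already high in sham livers on the high-fat diet. It was at 158, 184 and 132 TPM in HFD-IRI livers, against 161, 237 and 148 TPM in HFD-Sham livers. On the normal diet it was at 208, 240.3 and 135 TPM in ND-IRI livers, against 37.3, 17.7 and 25.9 TPM in ND-Sham livers. Only the ND-Sham libraries stood apart, and the other 3 groups overlapped. In ND-IRI livers the mean reached 721% of that in ND-Sham livers (2.83; adjusted p = 1.60e-05), and on the high-fat diet the response was -0.18 (adjusted p = 0.614). The difference was -3.01 ± 0.40 (SE; 95% interval -3.87 to -2.15; limma adjusted p = 0.0166). It was not called without HFD-IRI 3, ND-IRI 2 or ND-Sham 3 (adjusted p 0.0623 to 0.0702, estimates -3.01 to -2.84).

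Nat8f5 and Col27a1 moved in opposite directions on the diets, and both movements passed the test. Nat8f5, a member of the N-acetyltransferase 8 family, was at 8.07, 2.84 and 5.38 TPM in HFD-IRI livers, against 11.7, 24.9 and 15.6 TPM in HFD-Sham livers. Its ND levels were 24.5, 38.4 and 42.0 TPM in ND-IRI livers, against 10.9, 10.4 and 4.40 TPM in ND-Sham livers. It fell to 31.2% of the sham mean on the high-fat diet (-1.54; adjusted p = 0.00663) and rose to 409% on the normal diet (1.96; adjusted p = 0.00144), a difference of -3.50 ± 0.54 (SE; limma adjusted p = 0.0394). The call was lost without HFD-IRI 2, HFD-IRI 3, HFD-Sham 2, ND-IRI 2, ND-IRI 3, ND-Sham 2 or ND-Sham 3 (adjusted p 0.0653 to 0.124, estimates -3.67 to -3.13), with no filter (0.0741), under median-ratio scaling (0.0558) and with the replicate block (0.0663). Its family holds near-identical copies, and of 5 tested members the other 4 were not called (differences from -1.14 to 0.30), so its reads may be split among them.

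Col27a1, a fibrillar collagen chain, was at 3.89, 3.30 and 3.53 TPM in HFD-IRI livers, against 12.2, 14.0 and 8.67 TPM in HFD-Sham livers. In mice fed the normal diet it was at 8.95, 14.0 and 11.9 TPM in ND-IRI livers, against 5.60, 7.89 and 5.88 TPM in ND-Sham livers. Injured and sham livers overlapped on neither diet. It fell to 30.7% of the sham mean on the high-fat diet (-1.44; adjusted p = 0.000184) and rose to 180% on the normal diet (0.75; adjusted p = 0.0101), a difference of -2.19 ± 0.29 (SE; limma adjusted p = 0.0166). It was not called without HFD-IRI 3, ND-IRI 2, ND-IRI 3 or ND-Sham 3 (adjusted p 0.0565 to 0.0705, estimates -2.19 to -2.06). The list of stellate cell and matrix genes, which does not hold Col27a1, had 0 of 19 tested members called and a median of -0.20.

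Osbpl3 and Cyb5b were highest in HFD-Sham livers and fell on the high-fat diet. Osbpl3, an oxysterol-binding-protein relative that carries lipids at membrane contacts, was at 3.13, 2.77 and 2.22 TPM in HFD-IRI livers, against 18.5, 43.5 and 15.1 TPM in HFD-Sham livers. On the normal diet it was at 1.07, 1.16 and 1.02 TPM in ND-IRI livers, against 1.22, 1.19 and 1.23 TPM in ND-Sham livers. It fell to 10.6% of the sham mean on the high-fat diet (-2.70; adjusted p = 2.93e-05), and the response on the normal diet was -0.09 (adjusted p = 0.825), a difference of -2.62 ± 0.42 (SE; limma adjusted p = 0.0404). The call held without HFD-Sham 2, HFD-Sham 3 or ND-IRI 1 and was lost without each other library (adjusted p 0.0538 to 0.131, estimates -2.77 to -2.52), with no filter (0.0814), under median-ratio scaling (0.0509) and with the replicate block (0.061).

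Cyb5b, the cytochrome b5 of the outer mitochondrial membrane, was at 158, 136 and 118 TPM in HFD-IRI livers, against 309.6, 286 and 277 TPM in HFD-Sham livers. Its ND levels were 159, 158 and 155 TPM in ND-IRI livers, against 163, 171 and 149 TPM in ND-Sham livers. The HFD-Sham libraries were all far above the other 9. It fell to 47.1% of the sham mean on the high-fat diet (-1.09; adjusted p = 2.66e-05), and the response on the normal diet was -0.03 (adjusted p = 0.852), a difference of -1.06 ± 0.16 (SE; limma adjusted p = 0.0394). The call held without HFD-IRI 1, HFD-Sham 3 or ND-IRI 1 and was lost without each other library (adjusted p 0.0569 to 0.131, estimates -1.10 to -0.95), under median-ratio scaling (0.15), with no variance trend (0.0636) and with the replicate block (0.0545). Cyb5a, its endoplasmic reticulum counterpart, had a difference of 0.30 (95% interval -0.05 to 0.65) that did not pass.

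Lce1d and Tmem171 lay under 5 TPM in every group and are named because they were called, a choice made after their values were seen. Lce1d, a cornified envelope protein of skin, was at 0, 0 and 0.14 TPM in HFD-IRI livers, against 0.16, 0 and 0 TPM in HFD-Sham livers. In mice fed the normal diet it was at 4.23, 2.90 and 3.26 TPM in ND-IRI livers and was listed at 0 in all ND-Sham livers. It passed the filter through the ND-IRI group only, so that group had to stand out, and neither the test nor its repeats support the pattern. The difference was -2.16 ± 0.22 (SE; limma adjusted p = 0.0024), and it was called in all 22 alternatives that tested it. Tmem171 was at 1.96, 1.06 and 1.64 TPM in HFD-IRI livers, against 1.20, 2.31 and 2.57 TPM in HFD-Sham livers, and at 2.94, 2.76 and 3.21 TPM in ND-IRI livers, against 0.18, 0 and 0.40 TPM in ND-Sham livers. Its difference was -1.98 ± 0.30 (SE; limma adjusted p = 0.0394), called in 7 of 22 alternatives and, of the 12 libraries left out, only without HFD-Sham 1 or ND-IRI 1 (adjusted p 0.0503 to 0.123 and estimates -2.10 to -1.83 without each other library). The call was also lost at a pseudocount of 0.1 (0.0594), with no filter (0.0693), under median-ratio scaling (0.0679), under quantile normalization (0.0586) and with the replicate block (0.061).

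Just outside the threshold, 8 genes shared an adjusted p of 0.0502, 3 of them higher and 5 lower. Fmo2, a flavin monooxygenase, had a difference of 1.80 and was at 13.6, 8.90 and 8.99 TPM in HFD-IRI livers, against 14.0, 18.5 and 20.6 TPM in HFD-Sham livers, and at 5.19, 2.82 and 4.08 TPM in ND-IRI livers, against 25.8, 24.8 and 31.2 TPM in ND-Sham livers. Clstn3, a calsyntenin, had a difference of -1.63, with 8.91, 5.63 and 8.74 TPM in HFD-IRI livers, against 42.2, 40.5 and 47.5 TPM in HFD-Sham livers, and 5.08, 4.88 and 5.88 TPM in ND-IRI livers, against 12.5, 8.02 and 8.18 TPM in ND-Sham livers. Both are named after their values were seen. In all, 79 genes had an adjusted p under 0.1 and 263 under 0.2.

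Across 35 lists of liver pathways and cell types, which held 682 tested genes, 3 genes were called: Cyp4a10, Cyp4a14 and Cyp2e1. The other 10 called genes were in no list, and 32 lists had no called member. Each list is described by its counts and its median difference, beside -0.13 for all tested genes. Of these genes, 8865 lay below 0 and 4499 above it. Counts without the first ND-IRI and ND-Sham libraries stand beside 66 genes called higher and 269 lower among all 13364. The median of all genes was then -0.29. Relative to the median of all genes, no list changed side under median-ratio scaling or quantile normalization, nor did the 34 lists left after rescaling without mitochondrial and the most abundant genes. Without the first ND-IRI and ND-Sham libraries, 7 of the 35 lists did. They were NF-kB and STAT3 feedback (-0.20 with all libraries, 0.03 without), heat shock (-0.22, 0.10), hypoxia (-0.07, 0.08), immediate early (-0.34, 0.31), lipid droplet (-0.09, 0.00), endothelial (-0.14, 0.03) and p53 genes (-0.22, 0.13).

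**Figure D3:**
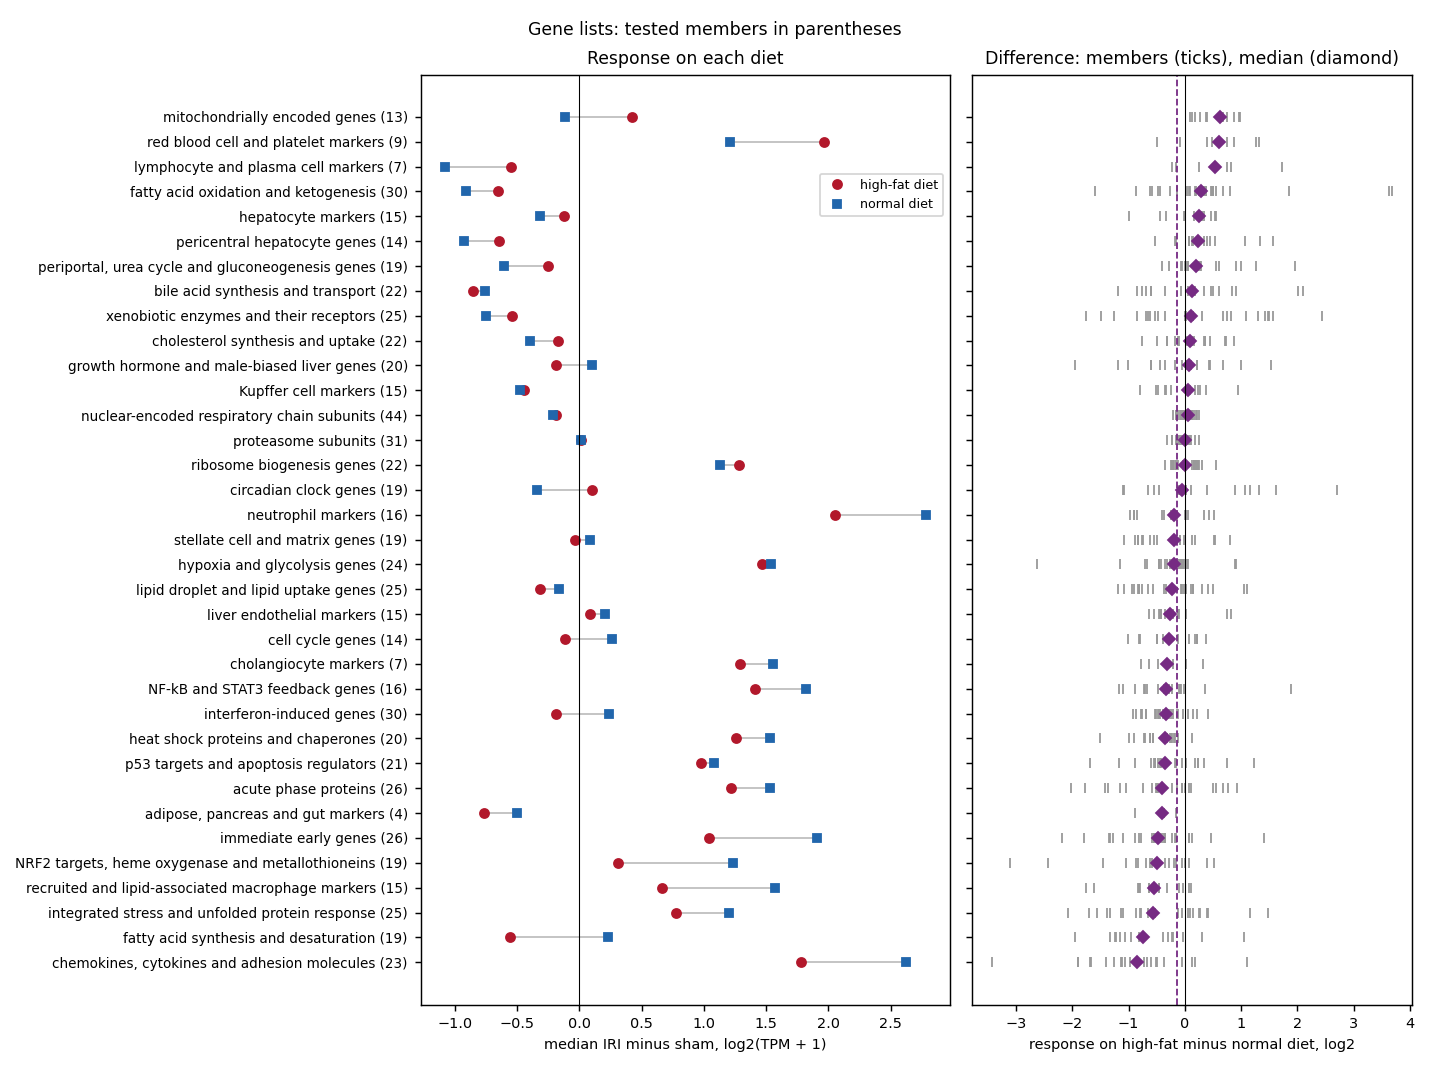
Gene lists, with the number of tested members in parentheses. Left, the median response to IRI in log2(TPM + 1) on the high-fat diet (circles) and on the normal diet (squares); right, the difference between the responses for each member (ticks) and its median (diamonds), with the median of all tested genes as a dashed line at -0.13. Chemokines and fatty acid synthesis genes lie lowest, at -0.85 and -0.74, and mitochondrially encoded genes highest, at 0.63.

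Fatty acid oxidation and ketogenesis genes fell on both diets, with a median response of -0.65 on the high-fat diet and -0.91 on the normal diet. Of 30 tested members, 23 fell and 1 rose on the high-fat diet, where 21.9% of all genes fell and 24% rose, and 26 fell and 1 rose on the normal diet, where 16.6% fell and 30.2% rose. The difference had a median of 0.29, with 22 members above 0 and 8 below, and 2 were called, Cyp4a10 and Cyp4a14. Cpt1a, which admits fatty acids to mitochondria, had -0.27 (95% interval -0.70 to 0.16), and Ppara itself had -0.48 (-1.35 to 0.39). Neither passed the test, and both were chosen after their values were seen. The large differences of Cyp4a10 and Cyp4a14 were not matched in size by the 28 members that were not called. These ran from -1.60 to 1.86, and the highest was again a Cyp4a gene, Cyp4a31. All members other than these Cyp4a genes lay under 1.

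**Figure D4:**
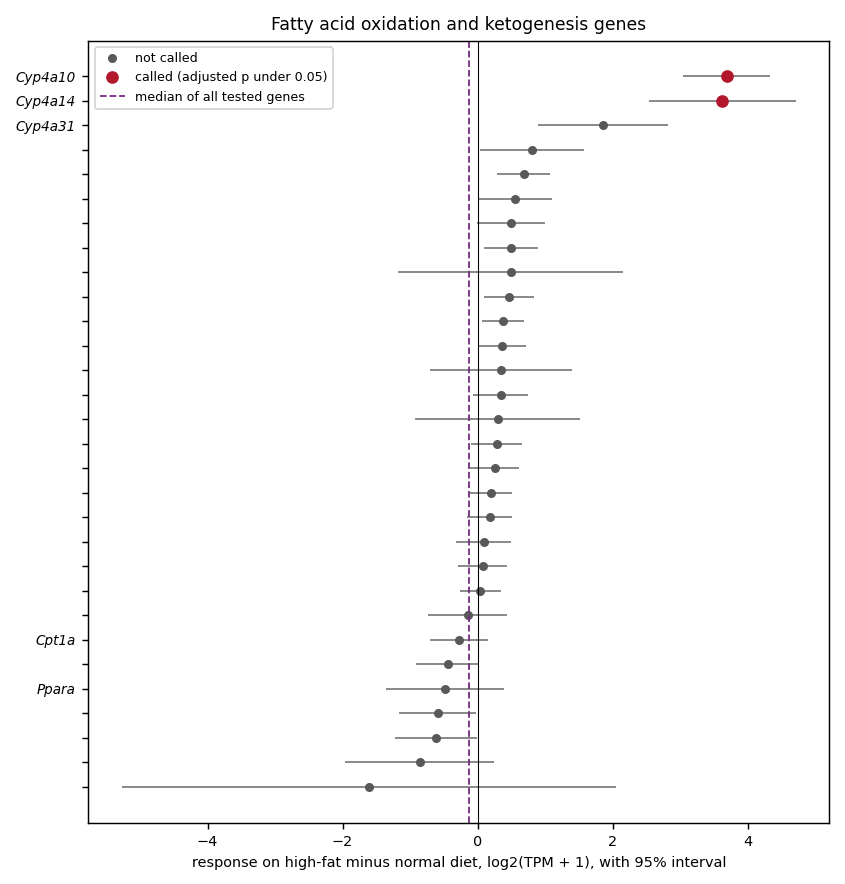
Difference between the responses to IRI on the high-fat and the normal diet for 30 fatty acid oxidation and ketogenesis genes, in log2(TPM + 1), with 95% intervals. Cyp4a10 and Cyp4a14 (red, called) lie above 3.6, Cyp4a31 lies at 1.86, and every other member lies under 1, with 22 of 30 above 0 (the genes the text names are labelled); the dashed line is the median of all tested genes.

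Other metabolic lists of hepatocytes lay slightly above the median of all genes. Pericentral genes had 1 of 14 called, Cyp2e1, with 11 above 0 and a median of 0.24. Oat, the pericentral ornithine aminotransferase, had 1.34 (95% interval 0.71 to 1.96; limma adjusted p = 0.0967), which did not pass, whereas Glul, the glutamine synthetase of the innermost cells, had 0.13 (-0.44 to 0.71) and Cyp1a2 had -0.53 (-1.36 to 0.30), both chosen after their values were seen. Xenobiotic enzymes had 1 of 25 called, again Cyp2e1, and a median of 0.12. Periportal and urea cycle genes had 0 of 19 called and a median of 0.19. Got1, the cytosolic aspartate aminotransferase, led them at 1.97 (1.09 to 2.84; adjusted p = 0.0855), with 687, 692 and 747 TPM in HFD-IRI livers, against 149, 160.2 and 293 TPM in HFD-Sham livers, and 1012, 511 and 619 TPM in ND-IRI livers, against 635, 631 and 956 TPM in ND-Sham livers. Bile acid genes had 0 of 22 called and a median of 0.14, and Cyp7a1, which starts the main route from cholesterol to bile acids, had 2.11 (0.78 to 3.43; adjusted p = 0.208). Cholesterol genes had 0 of 22 called and a median of 0.10, led by Msmo1 at 0.88. Msmo1 was at 226 TPM in ND-Sham 2, against 62.5 and 45.8 TPM in ND-Sham 1 and 3. Hepatocyte markers had 0 of 15 called and a median of 0.24, with Alb at -0.01 (-0.55 to 0.52).

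The growth hormone and male-biased list had lower medians on the high-fat diet in both kinds of liver. Its median difference between the diets was -1.66 in IRI livers and -1.46 in sham livers, and the median difference of the responses was 0.07, with 0 of 20 members called. Ugt2b38 was the furthest from 0, at -1.95 (95% interval -2.75 to -1.16; limma adjusted p = 0.0645). It was at 10.3, 6.98 and 9.03 TPM in HFD-IRI livers, against 12.3, 12.6 and 13.0 TPM in HFD-Sham livers, and at 31.6, 46.9 and 72.9 TPM in ND-IRI livers, against 14.1, 15.4 and 21.6 TPM in ND-Sham livers. Clock genes had 0 of 19 called and a median of -0.06, and Ciart, a clock repressor, led them at 2.70 (1.60 to 3.81; adjusted p = 0.0645), with 12.4, 19.8 and 26.5 TPM in HFD-IRI livers, against 20.0, 27.7 and 56.5 TPM in HFD-Sham livers, and 7.22, 3.59 and 4.84 TPM in ND-IRI livers, against 54.1, 79.3 and 61.3 TPM in ND-Sham livers. The time of day at sampling was not given in the sources used here.

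Fatty acid synthesis genes lay below the median of all genes, with a median of -0.74, 17 of 19 below 0 and 0 called. Relative to all genes, the list lay at -0.60 with all libraries and at -0.04 without the first ND-IRI and ND-Sham libraries. Lipid droplet genes had 0 of 25 called (2 higher without those libraries) and a median of -0.23. Pparg, which drives fat storage, had -1.18 (95% interval -1.94 to -0.43; limma adjusted p = 0.216) and was at 13.4, 8.37 and 15.0 TPM in HFD-IRI livers, against 32.2, 44.1 and 22.96 TPM in HFD-Sham livers, and at 8.34, 7.53 and 7.68 TPM in ND-IRI livers, against 7.37, 8.84 and 10.9 TPM in ND-Sham livers. Cidec, a lipid droplet fusion protein of steatosis, had -0.81 (-2.46 to 0.84).

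The chemokine, cytokine and adhesion list rose on both diets, with 20 of 23 members called higher after IRI on the high-fat diet, beside 24% of all genes, and 22 of 23 on the normal diet, beside 30.2%. None was called for the difference in limma (2 lower without the first ND-IRI and ND-Sham libraries), and the median was -0.85. Of the 23 members, 20 lay below 0, beside 8865 of all 13364 genes, and 10 had an unadjusted limma p under 0.05, beside 10.1% of all genes. Such p-values were also held by 13 of 25 xenobiotic, 12 of 30 fatty acid oxidation, 10 of 25 integrated stress and 8 of 19 clock genes. Ccl2, which draws in monocytes, lay at -3.44 (95% interval -5.0 to -1.87; adjusted p = 0.089). It was at 30.3, 24.2 and 72.8 TPM in HFD-IRI livers, against 15.5, 16.9 and 3.12 TPM in HFD-Sham livers, and at 77.0, 74.9 and 92.1 TPM in ND-IRI livers, against 0.58, 1.51 and 1.30 TPM in ND-Sham livers. The HFD-Sham libraries were all above the ND-Sham libraries (2.35; adjusted p = 0.0203), and the HFD-IRI libraries were all below the ND-IRI libraries (-1.08; adjusted p = 0.338). The summed level of the list was 565 to 684 TPM in HFD-IRI livers, against 76.6 to 207 TPM in HFD-Sham livers, and 795 to 870 TPM in ND-IRI livers, against 64.6 to 73.1 TPM in ND-Sham livers.

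No gene in the following lists of cell type markers was called for the difference. Neutrophil markers had 0 of 16 called and a median of -0.19, with summed levels of 234 to 620 TPM in HFD-IRI livers, against 12.1 to 28.8 TPM in HFD-Sham livers, and 274 to 721 TPM in ND-IRI livers, against 26.1 to 30.9 TPM in ND-Sham livers. Clec4e was the furthest, at -0.97 (95% interval -2.15 to 0.21). Recruited macrophage markers had 0 of 15 called and a median of -0.55, led by Fabp5 at -1.76 (-2.99 to -0.52), and resident Kupffer cell markers had 0 of 15 called and a median of 0.06, led by Cd163 at 0.94. Endothelial markers had 0 of 15 called and a median of -0.27, with Rspo3 at 0.83 (0.25 to 1.40), and stellate cell and matrix genes were led by Timp1 at -1.08. Cholangiocyte markers (0 of 7, median -0.31, Muc1 at -0.77), lymphocyte and plasma cell markers (0 of 7, median 0.53, Cd79a at 1.73), red blood cell and platelet markers (0 of 9, median 0.61, Hbb-bt at 1.33) and adipose, pancreas and gut markers (0 of 4, median -0.40, Cela1 at -0.88) likewise held no called gene. Cd79a was at 18.3 TPM in the first ND-Sham library, against 2.29 and 1.89 TPM in the other ND-Sham libraries. Without the first ND-IRI and ND-Sham libraries, the lymphocyte and plasma cell list had a median of 0.04, beside -0.29 for all genes. The part that cell composition had in the 13 called genes was not tested.

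Of 26 acute phase genes, 14 rose on the high-fat diet, beside 24% of all genes, and 16 on the normal diet, beside 30.2%. For the difference, 0 were called and the median was -0.40. Without the first ND-IRI and ND-Sham libraries, 5 were called lower, namely Saa1, Saa2, Orm2, Apcs and Steap4, beside 269 of all 13364 genes. The list median was then -0.63, beside -0.29 for all genes. Relative to all genes, the list lay at -0.27 with all libraries and at -0.34 without those. Steap4, a metalloreductase of inflamed liver, had -2.03 (95% interval -3.05 to -1.01; limma adjusted p = 0.118), with 811, 1537 and 665 TPM in HFD-IRI livers, against 174, 179 and 118 TPM in HFD-Sham livers, and 1086, 2616 and 1545 TPM in ND-IRI livers, against 73.0, 62.4 and 60.6 TPM in ND-Sham livers. NF-kB and STAT3 feedback genes had 0 of 16 called (1 higher without those libraries) and a median of -0.33, but Socs3, the inhibitor of STAT3 signalling, lay on the other side at 1.89 (0.95 to 2.83; adjusted p = 0.112). Socs3 was at 319, 353 and 414 TPM in HFD-IRI livers, against 11.1, 12.1 and 7.00 TPM in HFD-Sham livers, and at 415, 229.6 and 219 TPM in ND-IRI livers, against 24.1, 22.8 and 47.7 TPM in ND-Sham livers. IRI livers of the diets overlapped for Socs3, and sham livers did not. Interferon-induced genes had 0 of 30 called (2 lower without those libraries) and a median of -0.33, with Gbp2 at -0.91.

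Stress lists had no member called for the difference. Of 20 heat shock genes, 14 rose on the high-fat diet, beside 24% of all genes, and 18 on the normal diet, beside 30.2%, and these counts were not compared by a test. The difference lay below 0 for 19 of 20, with a median of -0.35, with Hspb1 at -1.51 (95% interval -2.49 to -0.53) and Hspa1a, the main inducible HSP70, at -0.18 (-2.80 to 2.43). The wide interval of Hspa1a leaves differences of over 2 units in either direction unresolved. Immediate early genes had 0 of 26 called and a median of -0.47, led by Fos at -2.18 (-3.96 to -0.39). Fos was at 221 TPM in HFD-Sham 1, against 37.5 and 40.6 TPM in HFD-Sham 2 and 3. Gdf15 led the integrated stress and unfolded protein genes at -2.07 (-4.37 to 0.23). It was at 4.62 TPM in ND-Sham 1, against 52.8 and 87.6 TPM in ND-Sham 2 and 3. With single libraries left out, its estimate ran from -2.85 to -0.86. The list had a median of -0.56 and 0 of 25 called (4 lower without the first ND-IRI and ND-Sham libraries). NRF2 targets, heme oxygenase and metallothioneins had 0 of 19 called (2 lower without them) and a median of -0.50, with Gsta1 at -3.11 (-5.11 to -1.10; limma adjusted p = 0.222) and Hmox1, the inducible heme oxygenase, at -0.87 (-2.18 to 0.43). Hypoxia and glycolysis genes had 0 of 24 called (1 higher without them) and a median of -0.20, and p53 targets had 0 of 21 called (1 higher and 2 lower without them) and a median of -0.35, with Plk2 at -1.68.

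Mitochondrially encoded transcripts lay above 0 for 13 of 13 genes, with a median of 0.63 and none called, and mt-Nd4l was the furthest at 0.98 (95% interval -0.18 to 2.14). Their summed level was 121342 to 152266 TPM in HFD-IRI livers, against 114579 to 128422 TPM in HFD-Sham livers, and 94279.8 to 116852 TPM in ND-IRI livers, against 105622 to 132560 TPM in ND-Sham livers. These transcripts share 1 genome and make up much of each library, so their share moves with that of all other RNA. Nuclear-encoded respiratory chain subunits, with 0 of 44 called, had a median of 0.06, led by Cox6c at 0.25. Proteasome subunits (0 of 31, median 0.01, Psmd8 at -0.32), ribosome biogenesis genes (0 of 22, median 0.00, Gnl3 at 0.56) and cell cycle genes (0 of 14, median -0.28, Mcm2 at -1.0) had no called member either.

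The number of called genes depended on the libraries used. With all 12 there were 13 calls. There were 89 without ND-IRI 1, 27 without HFD-Sham 3, 19 without ND-Sham 1 and 11 without HFD-Sham 1. Without HFD-IRI 1, HFD-IRI 2, HFD-Sham 2 or ND-Sham 2 there were 8, without ND-IRI 3 or ND-Sham 3 there were 3, and without HFD-IRI 3 or ND-IRI 2 there were 2. Without the first ND-IRI and the first ND-Sham library together, the median of all tested genes was -0.29, against -0.13 with all libraries. On top of this shift of all genes, 335 genes were called (2.51%) in that fit, 66 higher and 269 lower. These included all 13 genes above. Both fits share 10 libraries, so this overlap is no independent support. Among the listed genes, 35 were then called, in place of 3. Beside the lists whose counts are given above, these were 2 higher and 1 lower among xenobiotic enzymes, 2 higher each among periportal and clock genes, 1 higher among bile acid genes, and 1 lower each among male-biased genes, cell cycle genes and hepatocyte markers. They included Got1 at 2.35, Ciart at 3.05, Socs3 at 2.34 and the mitophagy receptor Bnip3 at 1.36, which were higher, and the serum amyloid genes Saa1 at -2.69 and Saa2 at -3.55, Inhbe at -2.54, Steap4 at -2.41 and Ugt2b38 at -2.12, which were lower. These names were chosen after their values were seen. With all libraries, none of these genes passed (limma adjusted p 0.0645 to 0.803).

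**Figure D5:**
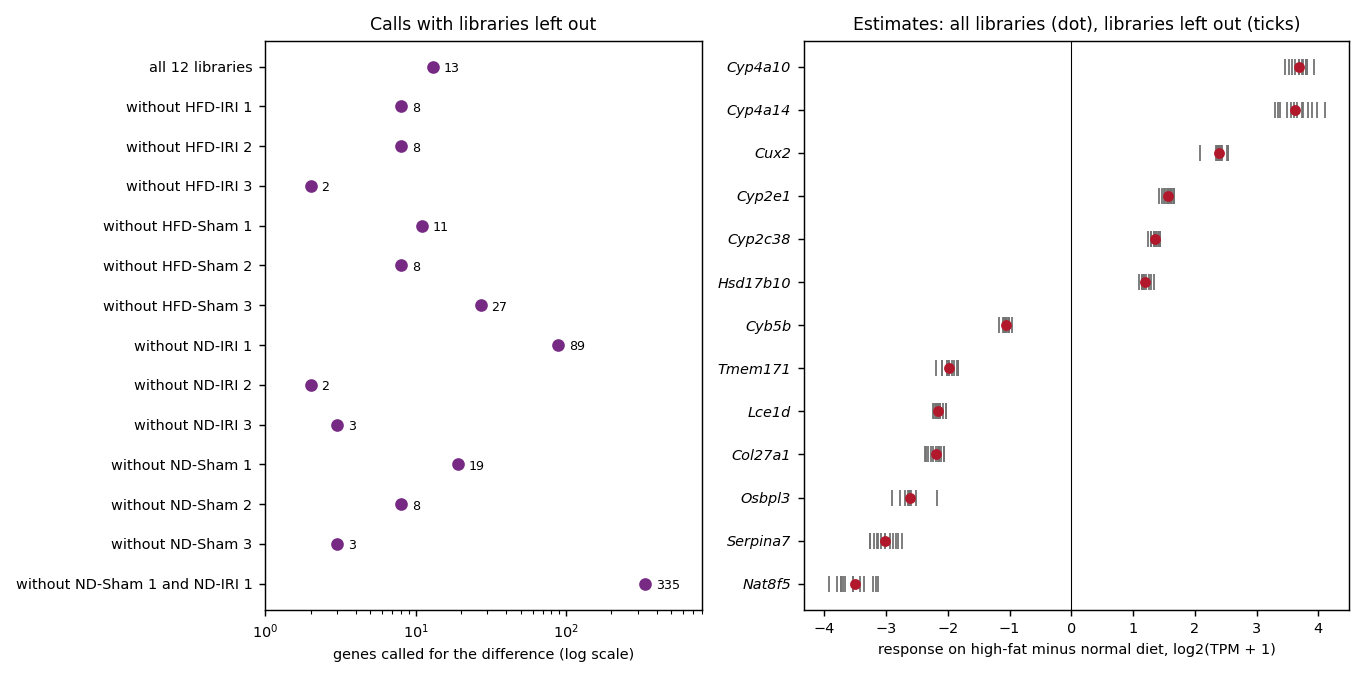
Left, number of genes called for the difference between the responses with all 12 libraries, with each library left out, and without the first library of each ND group (log scale): 13 with all, between 2 and 89 with 1 left out, and 335 with both left out. Right, the estimates of the 13 genes in log2(TPM + 1) with all libraries (dots) and with libraries left out (ticks), none of which cross 0.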

How the data were processed

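The 12 strand-specific poly(A) RNA libraries of wild type mouse liver, 3 in each of 4 groups, were sequenced on a BGI instrument, per the labels' protocols. The authors deposited TPM values for 25947 entries with a symbol; 2 blank entries were dropped, 17 symbols repeat and 807 entries were at 0 in all samples. The build was GRCm39 (mm39), per the submitters' processing notes, and no aligner, counter or annotation is named in the sources used here. TPM keeps no depth, so no counting error could be computed. A second deposited sheet, with 23 sample columns for 6 genes that were not matched to these samples, was not used.

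Genes reaching 1 TPM in 3 or more libraries were analysed as log2(TPM + 1), with 1 mean per group. The model was limma's (version 3.58.1, under R version 4.3.3), with its prior variance following the mean level. The comparison was the response to IRI on the high-fat diet minus that on the normal diet, with Benjamini-Hochberg adjustment over 13364 genes and a threshold of 0.05. Fold changes on this scale understate the change of low genes. A single-gene exact permutation test of 3 against 3 libraries cannot go below a two-sided p of 0.1, so none was used. The text names up to 12 called genes per direction with at least 5 TPM in a group. It also names, for each of 35 lists, up to 3 called members or, with none called, the member furthest from 0, and Hmox1, Hspa1a, Cidec and Alb. Some genes that the rule picks are not reported here. Other genes are said to be chosen after their values were seen, as were the relatives of called genes (Cyp4a, Cyp2c, Nat8, Cyb5a). The comparison, lists and rule were chosen with earlier results of these data known. The procedure was also run on simulated data with independent normal errors and no outlying libraries. That run cannot show how the calls behave with libraries such as the first ND-IRI and ND-Sham ones. Python 3.11.15 and matplotlib 3.10.9 made the plots. Alternatives covered the pseudocount, filter, scaling, variance model, library weights, replicate block and libraries left out.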

Additional observations from a re-analysis of the deposited data

Results flagged for a closer look

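The response to IRI was called different between the diets, by limma's test of the difference itself, for 13 genes. The estimates, high-fat minus normal diet in log2(TPM + 1), were 3.69 for Cyp4a10, 3.63 for Cyp4a14, 2.38 for Cux2, 1.56 for Cyp2e1, 1.35 for Cyp2c38 and 1.19 for Hsd17b10. They were -3.50 for Nat8f5, -3.01 for Serpina7, -2.62 for Osbpl3, -2.19 for Col27a1, -2.16 for Lce1d, -1.98 for Tmem171 and -1.06 for Cyb5b. Cux2 passed the filter through the ND-Sham group only and Lce1d through the ND-IRI group only, so the test is no support for these genes. Ugt2b38 is listed because all HFD-IRI libraries lay below all HFD-Sham libraries while all ND-IRI libraries lay above all ND-Sham libraries. Its difference of -1.95 did not pass limma's test (adjusted p = 0.0645), and no other test of it was made. The pattern is not particular to Ugt2b38: Nat8f5, Col27a1 and the uncalled Mfhas1 (-1.40, limma adjusted p = 0.0502) showed it too. How many of all tested genes show it is not given here.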

How the results depend on the processing

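With TPM alone, depth and counting error are unknown, 3 libraries a group left a typical 95% interval of 0.60 log2 units to either side, and none of the 13 called genes changed sign under any of the 23 alternatives that tested it. The counts depended on the setting. Genes called for the difference numbered 13 (6 higher, 7 lower). They were 25 (12, 13) with a pseudocount of 0.1, 21 (9, 12) with no filter, 19 (8, 11) with a filter of 5 TPM, 9 (4, 5) under median-ratio scaling, 21 (10, 11) under quantile normalization and 20 (9, 11) after rescaling without mitochondrial and the 50 most abundant genes. They were 13 (5, 8) with no variance trend, 4380 (672, 3708) with library weights and 335 (66, 269) without the first ND-IRI and ND-Sham libraries. The weights ran from 0.216 to 5.71. ND-Sham 3 had 5.71, against 0.287 and 0.536 for ND-Sham 1 and 2. HFD-IRI 1 had 5.55, against 0.427 and 0.481 for HFD-IRI 2 and 3. The weighted means of ND-Sham and HFD-IRI thus rest largely on 1 library each. The share called higher was 46.2% in the main fit, against 15.3% with weights and 19.7% without the first ND-IRI and ND-Sham libraries. The median of all tested genes was -0.13, -0.26 and -0.29 in these fits, respectively. With 1 library left out, counts ran from 2 to 89 in all, 1 to 24 higher and 1 to 65 lower. Calls for IRI then ran from 4930 to 6598 on the high-fat diet and 4903 to 6633 on the normal diet. Calls for diet ran from 240 to 609 in IRI livers and 248 to 1047 in sham livers.

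Calls for diet in sham livers numbered 493 under median-ratio scaling, 5102 with weights and 1730 without the first ND libraries, and in IRI livers 3867 with weights. Requiring an estimate of at least 1 left 2327 and 2523 calls for IRI on the high-fat and the normal diet, and 246 and 315 for diet in IRI and sham livers. Of the 3 genes followed throughout that reversed, all uncalled, Hmox1 lay at 0.10 with weights. Alb lay at 0.16 under median-ratio scaling, 0 under quantile normalization, 0.14 with weights, -0.12 to 0.10 with single libraries left out and 0.21 without the first ND libraries. Hspa1a lay at 0.53 with weights, -1.10 to 0.63 with single libraries left out and 1.10 without the first ND libraries. The cause of each of these changes was not tested.

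Of 18 correlations between the deviations of same-numbered libraries, 3 were over 0.1, in a range of -0.188 to 0.418. ND-Sham and HFD-Sham libraries had 0.396, 0.0756 and 0.274 for numbers 1, 2 and 3, and ND-IRI and HFD-IRI libraries had 0.418 for number 2. The numbers were not taken as pairs, and whether same-numbered libraries shared a batch was not tested. With the replicate block, 9 genes were called (5 higher, 4 lower; 55.6% higher), 8 of them among the 13.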
